A study of Mus musculus with 6 samples.

Results

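RGS proteins and arrestins limit signalling by G protein-coupled receptors. A receptor that has bound its ligand loads the G protein alpha subunit with GTP. RGS proteins (regulators of G protein signalling) speed the hydrolysis of that GTP and so end the signal, while receptor kinases (GRKs) mark the active receptor for the beta-arrestins, which uncouple it from the G protein and lead it to clathrin-coated pits. In macrophages these proteins are known for setting how strongly cells respond to chemokines and other ligands. The genes described here were chosen by name for these roles and not by their measured values, although earlier results of these data were known. They are the RGS genes Rgs1, Rgs2, Rgs3, Rgs10, Rgs14, Rgs18 and Rgs19 and the beta-arrestin genes Arrb1 and Arrb2. All 9 symbols were found among the 28822 gene rows of the deposited table, and all 9 passed the filter on low counts.

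The study compared 3 samples treated with BW723C86, an agonist of the serotonin receptor 5-HT2B, with 3 samples given its vehicle DMSO. In both groups the series' title names bone marrow-derived macrophages (BMDMs), cultured in the upper insert of a Transwell over HT22 mouse hippocampal neuronal cells that had undergone 2 h of oxygen-glucose deprivation, while each sample is labelled with both cell names. No source used here gives the dose, the length of treatment, the strain, age or genotype of the mice, or whether replicates were cultured apart. All p-values thus reflect sample-to-sample spread alone, and that spread may be technical. The design text also allows BV2 microglia in the insert, so the cells are called macrophages on the title's authority.

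Libraries held 58841307 to 75931615 counts. All 8 macrophage markers were detected, of which 3 rose, 4 fell and 1 did not pass the test described below. Their sums, mostly from Lyz2, were 32405 to 33586 CPM in BW723C86 libraries and 37033.5 to 37886 CPM in DMSO libraries. Csf1r, the receptor for macrophage colony-stimulating factor, rose and stood at 1063 ± 43.1 CPM in BW723C86 samples and 738 ± 2.45 CPM in DMSO samples (CPM, counts scaled to library size; mean ± SD, n = 3 each throughout). Itgam, the CD11b integrin gene, fell and stood at 976 ± 39.5 CPM in BW723C86 samples and 2088 ± 25.9 CPM in DMSO samples. All 7 neuronal markers in the table were too low to test, with sums of 0.222 to 0.401 CPM in BW723C86 libraries and 0 to 0.141 CPM in DMSO libraries, and Map2, Nefl and Dcx were at 0 in every library. Fibroblast markers summed to 0.111 to 0.436 CPM in BW723C86 libraries and 0.386 to 0.605 CPM in DMSO libraries. Htr2b, which encodes the agonist's receptor, had 124, 162 and 172 counts in BW723C86 libraries, against 9, 5 and 13 in DMSO libraries.

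Of the 9 genes, 3 rose with BW723C86 (Rgs1, Rgs10 and Arrb1), 3 fell (Rgs18, Rgs14 and Arrb2) and 3 did not pass the test (Rgs2, Rgs3 and Rgs19). Across all 15567 tested genes, 42% passed the same test (edgeR's quasi-likelihood test, Benjamini-Hochberg adjusted p under 0.05), 21.3% as higher and 20.7% as lower. Among the 10092 genes with a mean of at least 5 CPM, as all 9 have, 52.6% passed. With no scaling beyond the library total, 2581 genes were called higher and 4124 lower, against 3319 and 3215 with TMM scaling. The 9 genes had a median log2 fold change of -0.0041, beside 0.0042 over all tested genes, and a median absolute log2 fold change of 0.21, beside 0.27. Levels of the 2 groups did not overlap for 7 of the 9 genes and for 52.3% of all tested genes. A change of at least 2-fold was called for Rgs1 and Rgs18, and for 8.45% of tested genes.

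**Figure D1:**
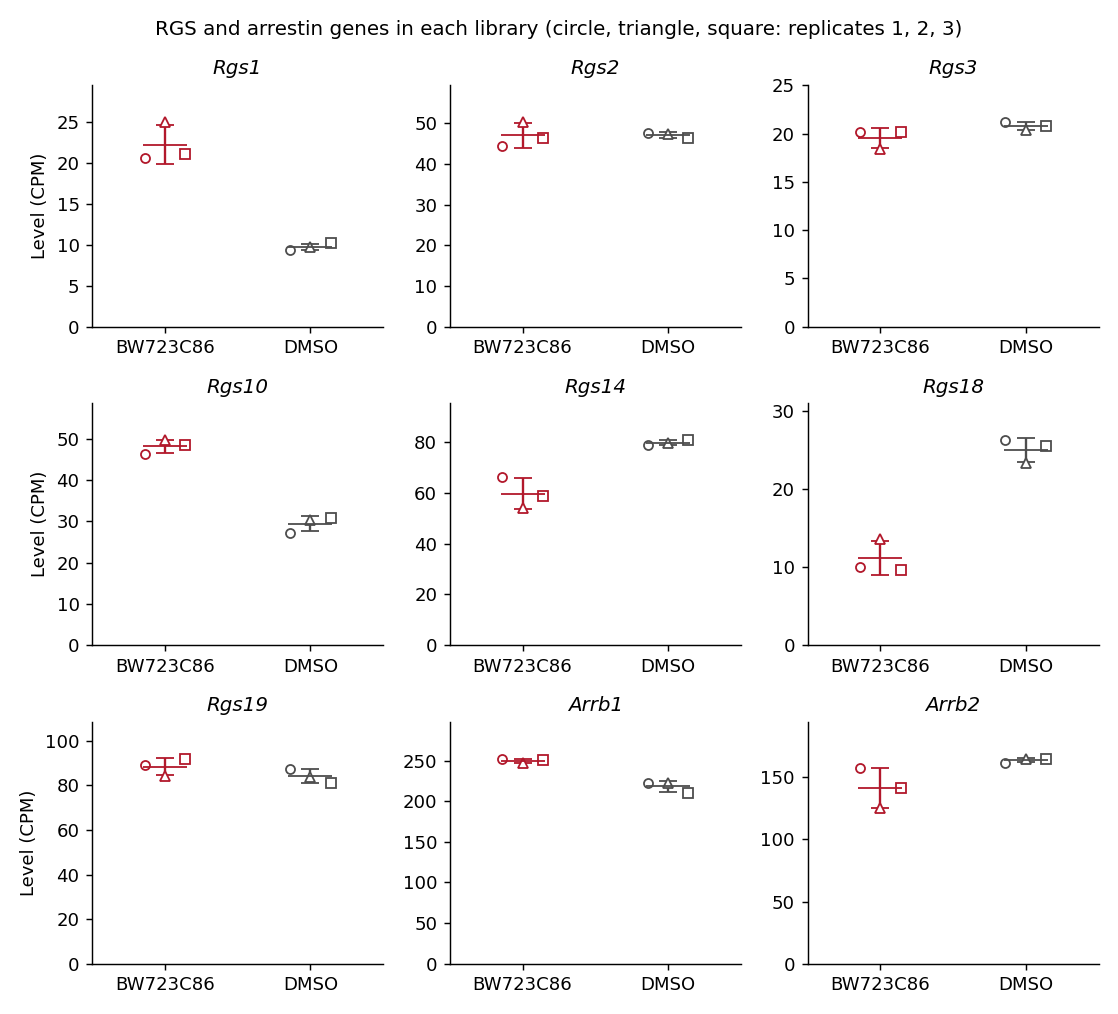
Level of each of the 9 genes in CPM (linear axes starting at 0) in the 3 BW723C86 and 3 DMSO libraries, with the group mean and SD as bars. Rgs1 and Rgs10 lie higher and Rgs14 and Rgs18 lower in every BW723C86 library than in any DMSO library, while the groups overlap for Rgs2 and Rgs19.

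Rgs1, Rgs2 and Rgs18 belong to the R4 subfamily of small RGS proteins and lie close together on chromosome 1, where the reference annotation (GENCODE M21, GRCm38) lists the consecutive coding genes Rgs2, Rgs13, Rgs1, Rgs21 and Rgs18 on a single strand. Rgs13 and Rgs21 were not analysed here. The 3 measured neighbours went 3 ways. Rgs1 was higher with BW723C86, Rgs18 was lower by a similar factor, and Rgs2 had almost equal means.

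Rgs1 (ENSMUSG00000026358) encodes a GTPase activator for Gi and Gq subunits that limits chemokine-driven migration of leukocytes. Its level was 20.7, 25.1 and 21.1 CPM in BW723C86 replicates 1 to 3, against 9.39, 9.75 and 10.2 CPM in DMSO replicates 1 to 3. Every BW723C86 library stood above every DMSO library, and replicate 2 was the highest. Rgs1 rose 2.28-fold (log2 fold change 1.19, SE 0.09, adjusted p = 3.52e-07). Markers of lymphocytes, in which Rgs1 is also known to be expressed, went the other way. Of 7 tested, 5 fell, and all 10 summed to 3.66 to 4.9 CPM in BW723C86 libraries and 8.75 to 12.5 CPM in DMSO libraries.

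Rgs18 (ENSMUSG00000026357) encodes an RGS protein of blood cells, best known from platelets, where it restrains activation. It stood at 10.05, 13.7 and 9.69 CPM in BW723C86 libraries, against 26.3, 23.4 and 25.5 CPM in DMSO libraries. Its highest BW723C86 value, again in replicate 2, was well below the lowest DMSO value. Rgs18 fell by 1.17 on the log2 scale (SE 0.12, adjusted p = 4.75e-06), so that DMSO samples held 2.25 times the BW723C86 level. In bulk RNA, fewer cells of a type and less RNA per cell cannot be told apart.

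Several markers of other blood cells fell as Rgs18 did. Of the 8 platelet and megakaryocyte markers, 5 could be tested and 3 fell, and the list summed to 21.3 to 26.6 CPM in BW723C86 libraries and 161 to 172 CPM in DMSO libraries. Most of that sum was Pf4, the platelet factor 4 gene, at 14.8 ± 1.62 CPM with BW723C86 and 150.2 ± 5.03 CPM with DMSO. The platelet receptor genes Gp9 and Gp6 reached at most 0.216 and 0.0676 CPM in any library, and no gene of this list was at 0 in all libraries. All 8 tested neutrophil markers, of 11, also fell, with sums of 703 to 807 CPM in BW723C86 libraries and 2581 to 2658 CPM in DMSO libraries, mostly from Mmp8. Mpo, Camp and Retnlg were too low to test, at no more than 0.338 CPM in any library. Mast cell markers fell for 2 of 4 tested genes, with sums of 54.8 to 59.5 CPM in BW723C86 libraries and 96.3 to 104 CPM in DMSO libraries. Most of the BW723C86 sum was Kit, which did not pass the test (44.9 ± 1.47 CPM with BW723C86 and 46.4 ± 2.02 with DMSO). The fall of the sum was mostly that of Cpa3 (11.7 ± 1.45 and 51.6 ± 2.62 CPM). The part of these cells in the fall of Rgs18 was not tested.

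Rgs2 (ENSMUSG00000026360) encodes an RGS protein with a preference for Gq, the G protein through which 5-HT2B is known to signal. Its level was 44.3, 50.3 and 46.3 CPM in BW723C86 libraries and 47.7, 47.4 and 46.3 CPM in DMSO libraries. The groups overlapped, and the BW723C86 libraries were spread more widely. Its log2 fold change of -0.0041 (SE 0.06, adjusted p = 0.965) was the smallest of the 9, and 99.1% of tested genes had a larger absolute change. That value changed sign under several alternative settings without passing the test in any of them.

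Rgs3 (ENSMUSG00000059810, chromosome 4) encodes another R4 protein that acts on Gi and Gq. Levels of 20.2, 18.4 and 20.2 CPM in BW723C86 libraries lay just below the 21.2, 20.3 and 20.8 CPM of DMSO libraries. The groups did not overlap, but the difference was small against the spread (log2 fold change -0.09, SE 0.07, adjusted p = 0.372). In the reference transcripts 11.4% of the 50-base words of Rgs3 also occurred in another gene, more than for any other of the 9 genes, so that reads may be shared. With each library's trend on GC content removed, Rgs3 passed the test (log2 fold change -0.17, adjusted p = 0.0402).

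Rgs19 (ENSMUSG00000002458, chromosome 2) encodes GAIP, an RZ subfamily protein that acts on Gi. Levels of 88.9, 84.2 and 91.9 CPM in BW723C86 libraries overlapped with 87.3, 83.8 and 81.1 CPM in DMSO libraries. The log2 fold change of 0.07 (SE 0.05, adjusted p = 0.291) did not pass the test.

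The R12 subfamily genes Rgs10 and Rgs14 moved in opposite directions. Rgs10 (ENSMUSG00000030844, chromosome 7) encodes a short protein, little more than an RGS domain, that in mouse microglia and macrophages is known to restrain inflammatory activation. It had 46.3, 49.6 and 48.4 CPM in BW723C86 libraries, against 27.3, 30.3 and 30.7 CPM in DMSO libraries. The gap between the groups was much wider than the spread within either. Rgs10 rose 1.64-fold (log2 fold change 0.71, SE 0.06, adjusted p = 1.32e-06).

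Rgs14 (ENSMUSG00000052087, chromosome 13) encodes a larger protein that joins an RGS domain to Ras-binding domains and a GoLoco motif, with which it also holds inactive Gi. Its BW723C86 levels of 66.2, 54.2 and 58.8 CPM were all below the DMSO levels of 79.0, 79.8 and 80.8 CPM. DMSO libraries were nearly equal, whereas BW723C86 replicate 2 was lowest and replicate 1 highest in their group. Rgs14 fell by 0.42 on the log2 scale (SE 0.07, adjusted p = 0.000213).

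RefSeq promoter windows (GRCm38.p6, 250 bases before to 50 bases after the start) were found for 4 of the 9 genes, 7 windows in all. A pair is shown because Rgs10 rose while Rgs2 had almost equal means, and both have a single window. Capitals mark each match to the letters GGGCGG or their reverse complement (a GC box). The Rgs10 window is chr7:128418123-128418422, minus strand, and the Rgs2 window is chr1:144004100-144004399, minus strand.
Rgs10: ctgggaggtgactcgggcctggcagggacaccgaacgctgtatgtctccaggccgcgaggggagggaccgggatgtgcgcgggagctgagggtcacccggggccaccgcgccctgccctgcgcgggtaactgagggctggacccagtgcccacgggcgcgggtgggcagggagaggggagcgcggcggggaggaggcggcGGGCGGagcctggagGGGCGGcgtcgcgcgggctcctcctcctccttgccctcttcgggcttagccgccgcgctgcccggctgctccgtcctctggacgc
Rgs2: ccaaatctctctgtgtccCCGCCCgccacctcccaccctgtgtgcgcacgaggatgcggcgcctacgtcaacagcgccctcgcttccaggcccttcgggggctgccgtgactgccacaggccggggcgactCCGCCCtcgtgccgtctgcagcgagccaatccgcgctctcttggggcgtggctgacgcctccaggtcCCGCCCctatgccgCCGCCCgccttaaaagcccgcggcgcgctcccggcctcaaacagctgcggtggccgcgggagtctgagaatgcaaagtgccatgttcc

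The Rgs10 window held 2 such matches and the Rgs2 window 4, and 35.7% of all 32851 windows of this length held at least 1. GC made up 76.0% and 70.0% of their bases. On either strand, neither window held the letters TGACGTCA (a cAMP response element, in 1.79% of all windows), TGANTCA (AP-1, 7.81%), the NF-kB motif (1.63%), GAGGAAG (PU.1, 13.6%), CACGTG (E-box, 7.15%) or TATAAA (13.6%). These letters describe the windows and say nothing of which factors bind there.

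The beta-arrestin genes also moved in opposite directions, and by little. Arrb1 (ENSMUSG00000018909, chromosome 7), which encodes beta-arrestin 1, had 252, 247 and 250.1 CPM in BW723C86 libraries, against 222, 223 and 210.4 CPM in DMSO libraries. Every BW723C86 library was above every DMSO library, and Arrb1 rose 1.14-fold (log2 fold change 0.19, SE 0.04, adjusted p = 0.00271). Arrb2 (ENSMUSG00000060216, chromosome 11), which encodes beta-arrestin 2, had 157, 125 and 141 CPM in BW723C86 libraries, against 162, 164 and 165 CPM in DMSO libraries. The groups did not overlap, but BW723C86 replicate 1 came close to the DMSO libraries. Arrb2 fell by 0.21 on the log2 scale (SE 0.07, adjusted p = 0.0225).

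This fall of Arrb2 was no longer called without DMSO replicate 1, 2 or 3 (adjusted p = 0.0548, 0.0756 and 0.0747), at log2 fold changes of -0.21 to -0.22. When the test asked for a change beyond 1.2-fold, neither arrestin gene passed, while Rgs1, Rgs10, Rgs14 and Rgs18 did.

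Since both arrestins are counted in the same library, their ratio does not depend on the scaling. Per kb of transcript, the log2 ratio of Arrb2 over Arrb1 was 0.54, 0.24 and 0.40 in BW723C86 libraries, against 0.77, 0.79 and 0.87 in DMSO libraries. The ratio was lower in every BW723C86 library, by 0.41 on the log2 scale between group means. Their sum overlapped between groups, at 237 ± 16.3 CPM per kb with BW723C86 and 245 ± 2.34 CPM per kb with DMSO.

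**Figure D2:**
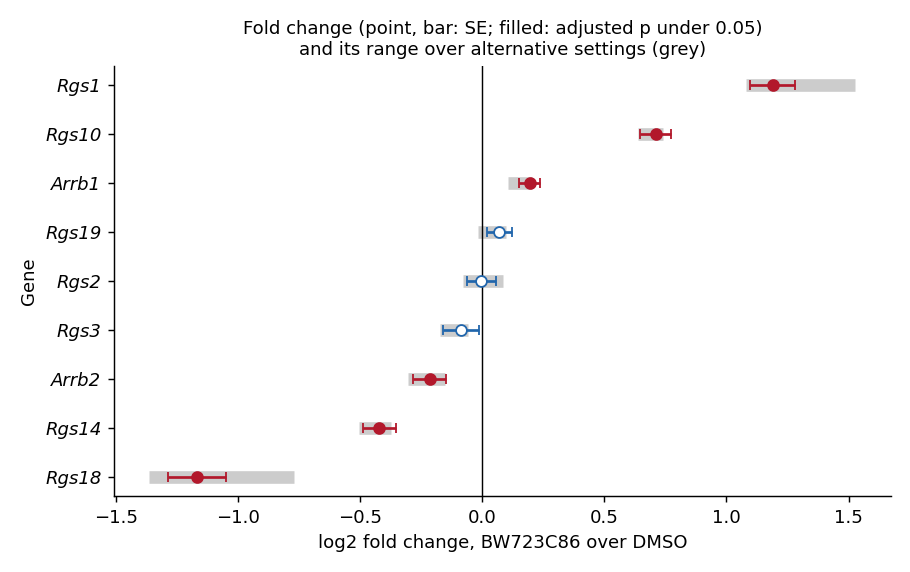
Log2 fold change of each gene, BW723C86 over DMSO, with its SE, and in grey the range over 19 alternative settings. Rgs1 at 1.19 and Rgs18 at -1.17 lie at the ends, and the grey range crosses 0 for Rgs2 and Rgs19.

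Levels of different genes were compared as CPM per kb of mean transcript length. With BW723C86 the order was Arrb2 (135 ± 15.3), Arrb1 (102 ± 1.00), Rgs10 (99.4 ± 3.44), Rgs19 (92.7 ± 4.05), Rgs2 (37.4 ± 2.44), Rgs14 (33.4 ± 3.39), Rgs1 (10.5 ± 1.14), Rgs3 (9.81 ± 0.528) and Rgs18 (5.48 ± 1.08). Neighbouring ranges overlapped between Arrb1 and Rgs10, Rgs10 and Rgs19, Rgs2 and Rgs14, and Rgs1 and Rgs3. In DMSO libraries the order was Arrb2 (156 ± 1.59), Arrb1 (89.2 ± 2.81), Rgs19 (88.3 ± 3.24), Rgs10 (60.8 ± 3.88), Rgs14 (44.7 ± 0.504), Rgs2 (37.6 ± 0.564), Rgs18 (12.3 ± 0.74), Rgs3 (10.4 ± 0.222) and Rgs1 (4.59 ± 0.185). There the ranges of Arrb1 and Rgs19 alone overlapped among neighbours. Per kb of the longest transcript, Arrb1 stood below Rgs19 and Rgs10 in both groups, at 35.0 with BW723C86 and 30.6 with DMSO. On the mean length, Rgs1 was the lowest of the 9 in DMSO libraries and Rgs18 the lowest in BW723C86 libraries.

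The 7 RGS genes together summed to 289 ± 2.54 CPM per kb of mean transcript length with BW723C86 and 259 ± 0.542 with DMSO. Per kb of the longest transcript the sums were 167 ± 1.16 and 157 ± 0.11. On either length, the sum was higher in every BW723C86 library than in any DMSO library. The size of that difference depends on the lengths used, with a short mean length of 484 bases for Rgs10. On the mean length, Rgs10 made up 34.4% ± 1.01 of the sum in BW723C86 libraries and 23.5% ± 1.47 in DMSO libraries. Rgs19 was close in both groups, at 32.1% ± 1.34 and 34.1% ± 1.29. Rgs14 made up 11.6% ± 1.252 with BW723C86 and 17.3% ± 0.187 with DMSO, and Rgs2 13.0% ± 0.806 and 14.5% ± 0.221. Rgs18 gave 1.9% ± 0.375 and 4.77% ± 0.296, and Rgs1 gave 3.62% ± 0.389 and 1.77% ± 0.0703, so that their order was exchanged between the groups. The swap of Rgs1 and Rgs18 rests on the transcript length: per kb of the longest transcript Rgs18 stood above Rgs1 in both groups (3.28% and 2.28% of the RGS sum with BW723C86, 7.88% and 1.07% with DMSO).

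**Figure D3:**
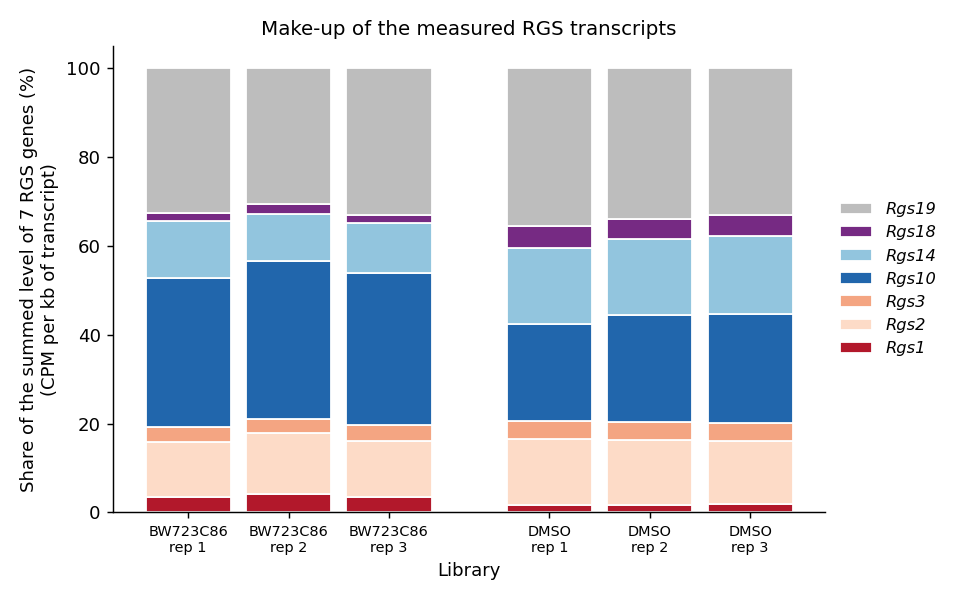
Share of each RGS gene in the summed level of the 7 RGS genes (CPM per kb of mean transcript length, in percent), one stacked bar per library. Rgs10 takes a larger share in BW723C86 libraries (34.4% on average) than in DMSO libraries (23.5%), and Rgs14 and Rgs18 a smaller one.

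BW723C86 replicate 2 was the highest or lowest of its group for all 9 genes: highest for Rgs1, Rgs2, Rgs10 and Rgs18 and lowest for the other 5. How often this held over all tested genes was not counted. Across 10024 genes of at least 5 CPM, the deviation of replicate 2 from the other BW723C86 libraries went down with GC content of the transcript. The Spearman correlation was -0.62, a description across genes that share a library. It was 0.49 and 0.31 for BW723C86 replicates 1 and 3, and -0.20 to 0.21 for the DMSO libraries. Deviations within a group cancel out for each gene, so the values of a group are not independent of each other. Rgs18 and Rgs1, with the lowest GC of the 9 (33.4% and 35.9%), deviated by 0.45 and 0.26 on the log2 scale, and Arrb2, with the highest (55.7%), by -0.25. Without replicate 2, all 6 calls remained, with log2 fold changes of 1.08 for Rgs1, -1.36 for Rgs18, -0.37 for Rgs14 and -0.15 for Arrb2. With the smooth GC trend of each library removed, which also removes any trend on GC that goes with treatment, Rgs1 stood at 1.53 and Rgs18 at -0.77, both still called. With the trend removed only within groups they stood at 1.19 and -1.18.

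**Figure D4:**
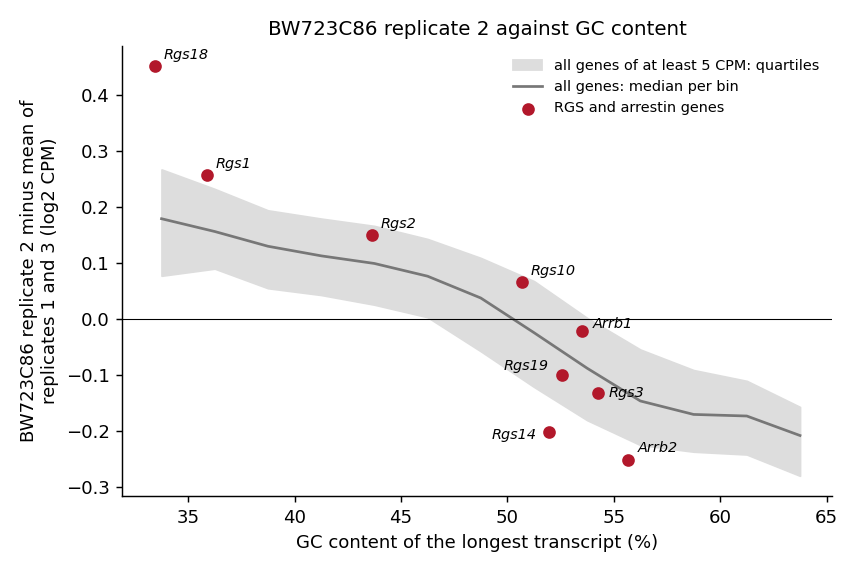
Log2 CPM of BW723C86 replicate 2 minus the mean of replicates 1 and 3, against GC content of the longest transcript in percent, for the 9 genes (points) and all genes of at least 5 CPM (median and quartiles in bins of GC). Rgs18 at 0.45, Rgs1 at 0.26, Rgs14 at -0.20 and Arrb2 at -0.25 lie outside the quartiles of their bins, whose medians go down with GC content.

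Other genes of the pathway were taken from 7 lists written from textbook knowledge. Of 90 genes listed, 63 were tested, of which 22 rose, 10 fell and 31 did not pass, with a median log2 fold change of 0.08. Over all tested genes 21.3% rose and 20.7% fell, with a median of 0.0042. Among other RGS family genes and partners, 6 of 18 were tested and 3 rose: Rgs12 (18.7 ± 1.68 CPM with BW723C86 and 15.7 ± 0.725 with DMSO), Axin1, a Wnt pathway scaffold with an RGS domain (53.6 ± 5.91 and 45.6 ± 0.917), and Rgs7bp, a membrane anchor of the R7 subfamily (4.28 ± 0.375 and 0.633 ± 0.0935). Rgs7bp, below the 5 CPM set for naming, was chosen after its values were seen, and its log2 fold change of 2.76 (SE 0.20) was larger than that of any of the 9 genes. Leaving out BW723C86 replicate 3 or DMSO replicate 3 left 1 call on this list. Rgs16, an R4 gene often induced in activated leukocytes, was at 0.385 ± 0.0279 CPM with BW723C86 and 0.73 ± 0.249 CPM with DMSO, short of the threshold (adjusted p = 0.0934).

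The kinases that prepare receptors for arrestin changed little. Of 5 tested GRK genes, Grk3 rose (11.6 ± 1.16 CPM with BW723C86 and 8.65 ± 1.22 with DMSO, adjusted p = 0.0121) and Grk6 fell (77.4 ± 5.62 and 92.7 ± 2.78, adjusted p = 0.00245). Over all tested genes 42% were called. Without DMSO replicate 1 or DMSO replicate 3 only 1 GRK gene was called, and against a fold change of 1.2 none was. Grk2, the most abundant of them in CPM, was at 216 ± 15.8 and 234 ± 4.41 CPM (log2 fold change -0.12, adjusted p = 0.0965). Of 14 partners of arrestin in endocytosis, 8 rose, 1 fell and 5 did not pass, where 52.6% of all genes of at least 5 CPM, as all 14 are, were called. Ap2m1, a subunit of the clathrin adaptor AP-2, rose by 0.52 on the log2 scale to 455 ± 13.6 CPM with BW723C86, against 318 ± 4.11 CPM with DMSO. The clathrin light chain gene Cltb rose by 0.28, and Ap2a2, another AP-2 subunit, fell by 0.26. Only 3 of the 14 were called with no scaling beyond the library total, and 5 without DMSO replicate 3.

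Alpha-arrestins are distant relatives of the beta-arrestins that serve as adaptors for ubiquitin ligases. Of 5 tested genes on the list of other arrestins, 2 fell and 1 rose, where 42% of all tested genes were called. Txnip, encoding the thioredoxin-interacting protein, fell by 0.94 on the log2 scale (735 ± 14.1 CPM with BW723C86 and 1410 ± 5.55 with DMSO, adjusted p = 1.29e-09). Arrdc4, the closest relative of Txnip on the list, fell by 0.61 (77.6 ± 2.43 and 119 ± 0.506). Arrdc1 rose by 0.30 (52.9 ± 3.44 and 42.8 ± 2.93).

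Of 10 tested genes for G protein alpha subunits, the targets of RGS proteins, 4 changed, where 42% of all tested genes did. Gnas, encoding the alpha subunit of Gs, which most RGS proteins do not act on, rose by 0.61 on the log2 scale (898 ± 28.6 CPM with BW723C86 and 587 ± 8.56 with DMSO, adjusted p = 1.43e-07). Gna13 rose by 0.25, and the Gi genes Gnai3 and Gnai2 fell by 0.31 and 0.15. Gnaq, of the Gq class, had 81.5 ± 2.29 CPM with BW723C86 and 87.4 ± 1.15 CPM with DMSO, which did not pass the test (adjusted p = 0.0996). Of 13 tested beta and gamma subunit genes, 3 rose and 3 fell, beside 21.3% and 20.7% of all tested genes. Among them were Gng11 (log2 fold change 2.00, 10.7 ± 0.948 and 2.69 ± 0.363 CPM), Gnb4 (1.08, 13.2 ± 0.386 and 6.21 ± 0.379 CPM) and Gng2 (-0.63, 51.6 ± 1.75 and 79.7 ± 1.19 CPM).

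Of 10 tested genes for other proteins that act on alpha subunits, 4 rose, 1 fell and 5 did not pass. Over all tested genes 42% passed. Arhgef11, which encodes an RGS-domain protein downstream of G12/13, rose by 0.52 on the log2 scale (69.8 ± 2.13 CPM with BW723C86 and 48.6 ± 0.286 with DMSO). Gpsm2 and Gpsm3 share with Rgs14 the GoLoco motif that binds inactive Gi: Gpsm2 rose by 0.65 (17.4 ± 1.2 and 11.1 ± 1.02 CPM), and Gpsm3 fell by 0.37 (96.5 ± 8.53 and 124 ± 2.24 CPM).

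**Figure D5:**
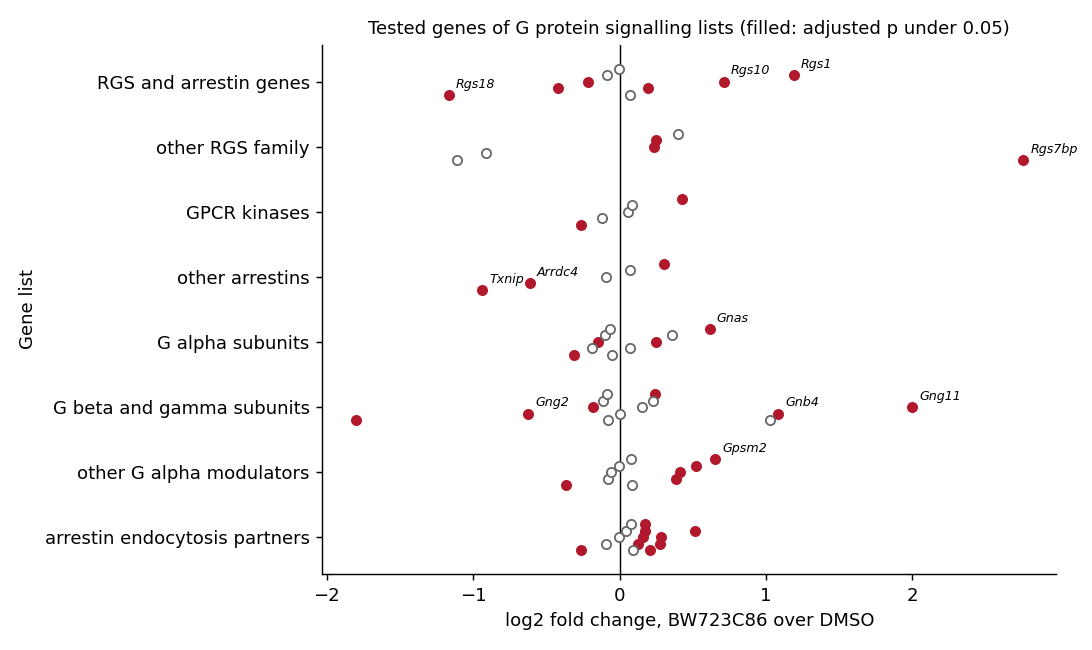
Log2 fold change, BW723C86 over DMSO, of every tested gene of the 9 and of the 7 other lists, one point per gene, filled where the adjusted p is under 0.05. Rgs7bp (2.76), Gng11 (2.00) and Rgs1 (1.19) lie farthest to the right.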

How the data were processed

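Poly(A) RNA was copied into strand-marked libraries and sequenced as 150-base paired ends, per the labels' protocols. The submitters' processing notes name fastp, HISAT2, StringTie and edgeR and the builds GRCm39 and GRCh38, without versions or roles; whether counting used the strand is not stated there. The authors deposited estimated counts per gene, all whole numbers, for all 6 samples. The value 4 occurs 4613 times, against 2904 times for 3, so that the worth of a fragment in counts is uncertain. Symbols, transcript lengths and GC content came from GENCODE M21 (GRCm38), which names 27005 of the rows; its chromosomes, strands and gene order were used for neighbouring and overlapping genes, and no coordinates from it are given.

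Counts were tested with edgeR 4.0.16 (R 4.3.3; quasi-likelihood, robust, TMM, default filter, two-sided, Benjamini-Hochberg over 15567 genes, threshold 0.05), after the script was tested on simulated data. CPM use the same scaling. Fold changes are BW723C86 over DMSO, each with its SE on the log2 scale. A count of 3 corresponds to 0.0395 to 0.051 CPM per library, for counting error only. Replicates differed by more than sampling noise (chi-square per degree of freedom 9.83 to 35.5, and 2.65 to 10.2 with counts divided by 4), so that all 6 were kept.

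All 9 genes are named. From each other list up to 3 called genes of smallest p are named, if their mean reached 5 CPM, with Htr2b, and, for the largest rise and fall among the 9, the 3 genes closest over the libraries. Rgs7bp, Rgs16, Grk2, Gnaq, Gnai2 and the marker genes were named besides. The 9 genes and the lists were chosen with earlier results of these data known. Alternatives were other scalings, filters and tools (DESeq2 1.42.0, limma-voom in limma 3.58.1), counts divided by 4, a test against a fold change of 1.2, a replicate block, leaving out each library in turn, the longest transcript as length, and, chosen after seeing the data, removal of GC trends.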

Additional observations from a re-analysis of the deposited data

How the results depend on the processing

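Rgs1, Rgs10, Rgs14 and Rgs18 kept their direction and their call under all 19 alternatives (log2 fold changes of 1.08 to 1.53, 0.64 to 0.74, -0.50 to -0.37 and -1.36 to -0.77). The number of the 9 genes called was 4 to 7, and 5 to 6 with a library left out. Rgs2 turned positive with upper quartile scaling (0.0014), with the filter of 5 CPM (0.0011), with counts divided by 4 (0.0028), without BW723C86 replicate 1 or DMSO replicate 1 (range of -0.073 to 0.033 with a library left out) and with each library's GC trend removed (0.087). Rgs19 turned negative with no scaling beyond the library total (-0.0025) and with each library's GC trend removed (-0.016). Neither passed the test under any of these, and the cause was not tested.

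Against a fold change of 1.2, which asks for a larger change by construction, 3208 genes passed, with 1 among other RGS genes, 0 GRK genes, 1 alpha subunit gene, 2 other modulators and 1 endocytosis partner. With a library left out, the counts ran from 5387 to 7153 over all genes, from 1 to 3 for other RGS genes, from 1 to 3 for GRK genes and from 5 to 9 for endocytosis partners. Endocytosis partners gave 3 calls with no scaling beyond the library total, and beta and gamma subunits gave 10 with GC trends removed within groups. Per kb of the longest transcript, the mean log2 ratio of Arrb2 over Arrb1 was 1.12 with BW723C86 and 1.53 with DMSO. Same-numbered replicates did not deviate together (correlations of 0.02, -0.03 and 0.02). That cannot show whether they were paired, since libraries also differ in their trend on GC content. With the replicate number as a block 6179 genes and 6 of the 9 were called. Values with a worth of several counts per fragment rest on fewer fragments than the counts show.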

Other observations

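Among 9740 named, non-pseudogene genes with a mean of at least 5 CPM, the course over the 6 libraries closest to that of Rgs1 was that of Mmp12, the macrophage elastase gene, followed by Gclm, encoding a subunit of the glutathione synthesis enzyme, and Myof, encoding myoferlin. Their centred log2 CPM differed from those of Rgs1 by 0.0461, 0.0635 and 0.0703 in root mean square. Mmp12 stood at 9458 ± 779 CPM in BW723C86 samples and 4423 ± 33.8 CPM in DMSO samples (SD, n = 3 each), far above Rgs1 in CPM. Closest to Rgs18 were Fgd4, an exchange factor gene for Cdc42 (0.0627), the potassium channel gene Kcnj10 (0.0735) and the T cell co-stimulator gene Cd28 (0.0761). Fgd4 was at 19.3 ± 2.45 CPM in BW723C86 samples and 42.7 ± 2.41 CPM in DMSO samples. Likeness over libraries of 2 groups mostly reflects an equal fold change, and nothing follows from it about shared control.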
